A study of Homo sapiens with 18 samples.

Results

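The enzymes that make serine from glycolysis and pass its carbon to folate were followed in the transcriptomes of cells that received a MIR-28 family microRNA. These are 9 genes, PHGDH, PSAT1, PSPH, SHMT1, SHMT2, MTHFD1, MTHFD2, MTHFD1L and ALDH1L2, found by their symbols among the 15358 genes listed for MCF10A and the 15257 listed for hTERT RPE-1. All 9 were listed in both tables and all 9 passed the filter on low values, which asked that 3 or more of a line's 9 libraries reach 10. PHGDH and the pathway around it were chosen from measured values, because PHGDH is among the deepest falls with the mimics in MCF10A, so the comparisons of a mimic with siNT in MCF10A are given as a description. Calls from the fit over all genes are stated there to describe the values, without p-values, and are no independent test of the enzymes.

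RNAseq was conducted on 18 libraries. MCF10A cells, a near-normal line of human breast epithelium, and hTERT RPE-1 cells, a near-normal line of human retinal pigment epithelium immortalized with telomerase, were each transfected with 30 nM of a miR-28 mimic (hsa-miR-28-5p), a miR-708 mimic (hsa-miR-708-5p) or siNT, a non-targeting siRNA that controls for the transfection of a small RNA, and were collected after 72 h. Each group had 3 replicates, with the numbers 7, 8 and 9 for MCF10A and 1, 2 and 3 for the retinal line, and each line is 1 established line. A mimic supplies a microRNA from outside the cell, and every library, siNT included, comes from cells that were transfected. The values are normalized read counts, on a separate scale in each line, so no test was made between the lines. RNA was measured in bulk, and fewer cells of a state cannot be told apart from less RNA per cell.

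The depth was 19.4 to 31.7 M reads on genes per library of MCF10A and 23.8 to 40.3 M in hTERT RPE-1, and a floor of 3 reads corresponds to values of 2.49 to 4.02 and of 2.35 to 4.41. These limits cover counting error only. RPS28, a ribosomal protein gene that falls with both mimics, had log2 fold changes of -2.79 with miR-28 and -2.65 with miR-708 in the breast line, and -4.47 and -4.40 in the retinal line. All 9 basal breast markers were listed in MCF10A, with a summed value of 219270.4 to 236322 in siNT, 154895 to 168214 with miR-28 and 131077 to 154842 with miR-708. The largest falls in value were those of KRT5 (means of 84082, 61054 and 44721 in siNT, with miR-28 and with miR-708) and KRT14 (35973, 10942.5 and 7456). The other genes of this list were also lower with both mimics, except CDH3 (7876, 7802.5 and 8455), which was higher with miR-708. In hTERT RPE-1, 8 of 10 retinal pigment epithelium markers were listed, while RPE65 and TYR, which define the mature tissue, were not, and the summed value of the list was 29891 to 31694 in siNT, 11675 to 12848 with miR-28 and 7300.0 to 7730 with miR-708. Most of this sum was KRT8 (means of 14933, 4921 and 2092 in siNT, with miR-28 and with miR-708) and KRT18 (12654, 5512.5 and 3272), keratins of many simple epithelia. OTX2, MITF, PMEL and TYRP1 were lower with both mimics as well, while BEST1 (166, 230.4 and 205) and RLBP1 (2.42, 13.03 and 12.6) were higher. Of 6 markers of other cell types 3 were listed in MCF10A and 2 in hTERT RPE-1, and they moved in different directions. The mean of CD68, a lysosomal and macrophage gene, was 205 in siNT, 277 with miR-28 and 659 with miR-708 in MCF10A, against 377, 2058 and 6272.5 in the retinal line. PECAM1, an endothelial gene, was at 179, 85.5 and 79.1 in MCF10A and absent from the other table, and PTPRC, which defines leukocytes, was absent from the MCF10A table and at 6.27 to 7.01 in hTERT RPE-1. The summed value of this list was 365.7 to 419 in siNT, 334 to 395 with miR-28 and 602 to 823 with miR-708 in MCF10A, and 326 to 458, 527 to 3725 and 4795 to 7237 in hTERT RPE-1. The part of these shifts in the values below was not tested. In siNT replicate 8 of MCF10A the enzymes and genes of the amino acid response stood lower than in the other siNT libraries, which bears on every MCF10A result, and miR-28 replicate 1 of hTERT RPE-1 had the highest share of rRNA genes in that line, 15.1% (the range over the line began at 4.23%).

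Serine is made from a glycolytic intermediate by 3 enzymes in a row: PHGDH oxidizes 3-phosphoglycerate, PSAT1 adds the amino group and PSPH removes the phosphate. The serine hydroxymethyltransferases then split serine into glycine and a one-carbon unit held by folate, SHMT1 in the cytosol and SHMT2 in mitochondria. In mitochondria the unit is oxidized by MTHFD2 and released as formate by MTHFD1L, or carried on to carbon dioxide by ALDH1L2, while the trifunctional MTHFD1 of the cytosol puts formate back on folate for purine and thymidylate synthesis. Several of these genes are known targets of the transcription factor ATF4, which cells make when amino acids are scarce or the secretory pathway is under stress.

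The miR-708 mimic is shown first, since a transcript can pair with its seed (bases 2 to 8, in capitals). The mature sequence is from RefSeq (GRCh38.p14), at chr11:79402077-79402099 on the - strand.
hsa-miR-708-5p: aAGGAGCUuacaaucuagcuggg
hsa-miR-28-5p, the other mimic, belongs to the same family, whose members share a seed. Matches to this seed were searched as AGCTCCT (bases 2 to 8) and GCTCCTA (bases 2 to 7 and an A), which overlap in GCTCCT, in the 3′ UTR of 1 canonical transcript per gene (GENCODE 44, hg38). Of the 9 enzymes only MTHFD2 and ALDH1L2 had such a 7-base match, 1 each, and 18.7% of the 12945 genes tested in MCF10A with an annotated 3′ UTR had at least 1. The match in MTHFD2 lies in its last exon, exon 8 (chr2:74216014-74216042, + strand), and those in ALDH1L2 in exon 23 (chr12:105021118-105021146 and, for a shorter match of 6 bases, chr12:105021024-105021052, - strand). They are shown because they are the only seed matches in the 3′ UTRs of the 9 genes, with the match in capitals.
MTHFD2: gcgagcagaagtAGCTCCTgctctaggca
ALDH1L2, 7 bases: gcctactgatcttGCTCCTAgctacctct
ALDH1L2, 6 bases: acagaacaagcctGCTCCTgcctcagggc
The 3′ UTRs are of very different length, 3323 bases in MTHFD2 and 4634 in ALDH1L2 against 175 in PHGDH, 271 in MTHFD1 and 393 in MTHFD1L. In coding sequence, PHGDH, PSAT1, MTHFD1 and ALDH1L2 each had 1 match of 7 bases. A match is a description of the letters and not a site that was shown to be bound.

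Since several of the enzymes moved together in MCF10A, the 250 bases before their start sites are shown for those with the larger falls that RefSeq (GRCh38.p14) gave, and for MTHFD1L, which differs from them below. Promoters of 250 bases before and 50 after the start were found for 6 of the 9 genes (PHGDH, PSAT1, SHMT1, MTHFD1, MTHFD2 and MTHFD1L). They were searched on both strands for CCAAT, which NF-Y binds, for CACGTG, the E-box that MYC can bind, and for TGATGNAA, the core of the element that ATF4 binds with a partner. Capitals mark the matches. The stretches are chr1:119711684-119711933 (+ strand), chr9:78296875-78297124 (+ strand), chr2:74198365-74198614 (+ strand) and, for the second of 4 start sites of MTHFD1L, chr6:150866197-150866446 (+ strand).
PHGDH: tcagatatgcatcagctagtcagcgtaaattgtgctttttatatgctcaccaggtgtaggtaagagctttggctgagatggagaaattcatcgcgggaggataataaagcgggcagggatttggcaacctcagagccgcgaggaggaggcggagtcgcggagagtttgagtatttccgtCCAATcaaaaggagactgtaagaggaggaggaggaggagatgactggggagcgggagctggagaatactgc
PSAT1: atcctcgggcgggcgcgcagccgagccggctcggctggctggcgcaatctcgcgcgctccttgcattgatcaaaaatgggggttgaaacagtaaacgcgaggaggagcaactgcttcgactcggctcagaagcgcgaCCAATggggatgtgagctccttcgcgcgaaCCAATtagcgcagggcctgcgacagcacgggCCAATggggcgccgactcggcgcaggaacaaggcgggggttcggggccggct
MTHFD2: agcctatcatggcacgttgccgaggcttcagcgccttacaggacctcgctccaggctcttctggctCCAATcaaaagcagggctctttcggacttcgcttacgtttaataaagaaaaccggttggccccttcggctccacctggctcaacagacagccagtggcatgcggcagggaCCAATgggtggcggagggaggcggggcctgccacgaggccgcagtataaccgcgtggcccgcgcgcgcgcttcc
MTHFD1L: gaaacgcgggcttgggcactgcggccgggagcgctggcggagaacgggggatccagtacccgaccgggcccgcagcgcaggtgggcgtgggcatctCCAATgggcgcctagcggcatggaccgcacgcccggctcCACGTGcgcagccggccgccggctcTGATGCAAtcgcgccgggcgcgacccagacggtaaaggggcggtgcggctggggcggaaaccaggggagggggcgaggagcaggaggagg
CCAAT was present in all 6 genes: in PHGDH (at -71 from the start), PSAT1 (at -113, -83 and -52) and MTHFD2 (at -184 and -74), in SHMT1 (at -76 and -25) and MTHFD1 (at -216 and 35), and in MTHFD1L (at -154 from the start shown), and 34.6% of all 35116 promoters in the table had it. TGATGNAA was present only at MTHFD1L among the 6 genes, in the promoters of 3 start sites that overlap (at -90 from the start shown), and 3.62% of all promoters had it. CACGTG was present at MTHFD1L and MTHFD1, and 7.26% of all promoters had it. A motif outside these 300 bases would not be seen.

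In MCF10A, the comparisons from which PHGDH was picked, 6 of the 9 enzymes were called lower with each mimic and none was called higher. PHGDH was lowest, at 10.4% of its siNT mean with miR-28 and 10.1% with miR-708, and it was followed by ALDH1L2, SHMT2, MTHFD2, PSAT1 and MTHFD1. PSPH, SHMT1 and MTHFD1L were not called. Over all genes tested in MCF10A, 12.0% were called lower and 10.7% higher with miR-28, and 17.3% and 15.5% with miR-708. Since the choice used these values, nothing is read from the enzymes' count against these shares. A call is a Benjamini-Hochberg adjusted p below 0.05 in limma over the 14726 genes tested, and the median log2 fold change of the enzymes was -0.82 with miR-28 and -0.98 with miR-708, against 0.01 and -0.00 over all genes. Both comparisons use the same siNT libraries. Higher genes made up 47.1% of all calls with miR-28 and 47.3% with miR-708, and 66.2% and 67.6% when each library was divided by its total, where the median of all genes was 0.12 and 0.14, and 58.5% with miR-28 when libraries were scaled by their upper quartile. The enzymes called lower stayed below 0 under both scalings, and PSAT1 and MTHFD1 were no longer called with miR-28 when each library was divided by its total.

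**Figure D1:**
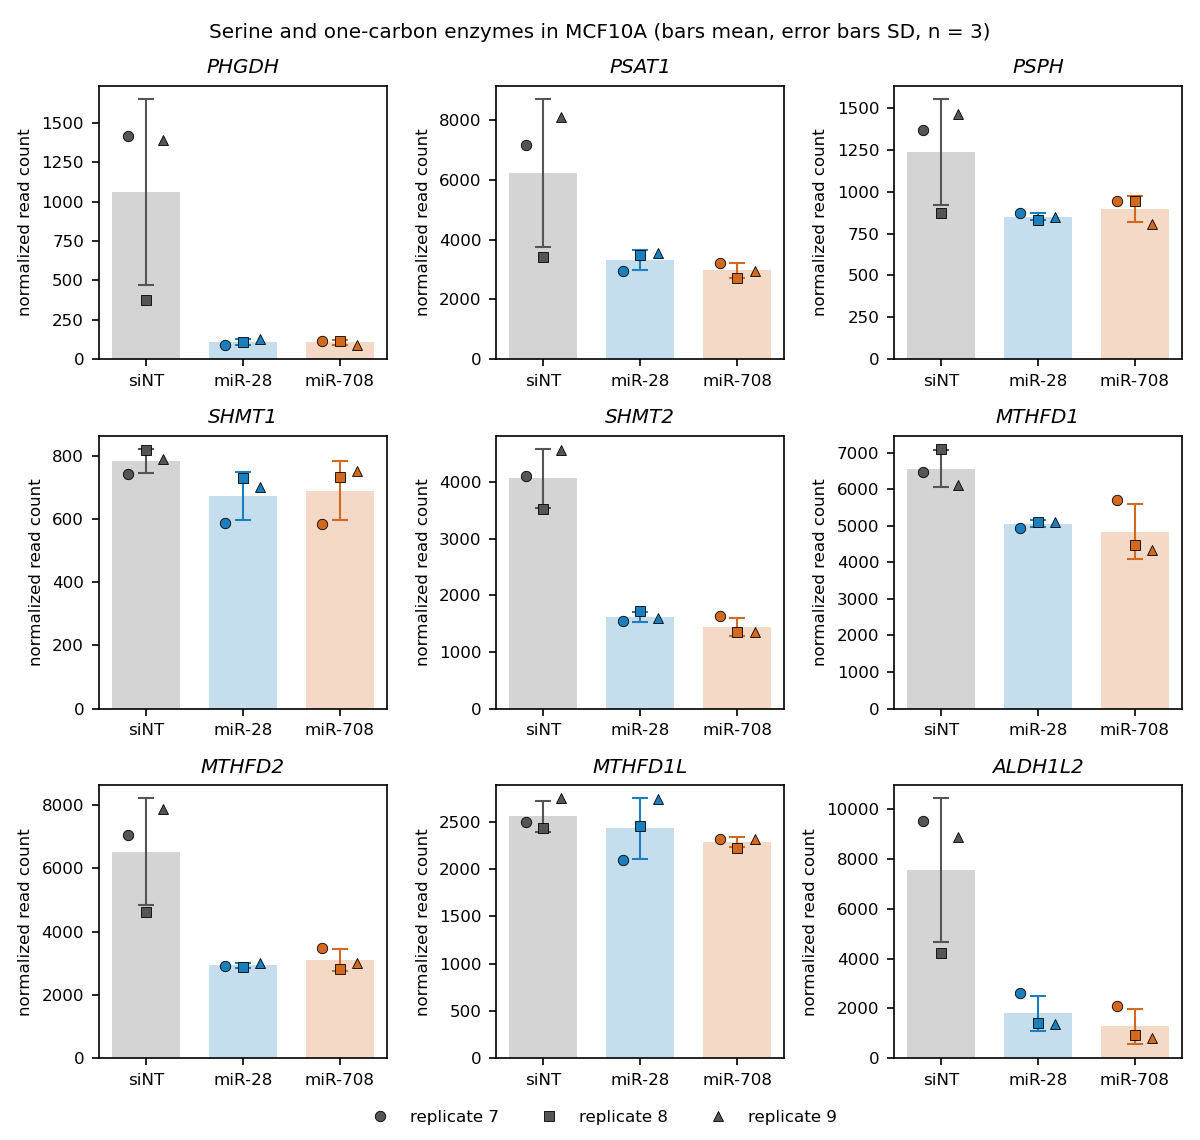
Normalized read counts of the 9 enzymes in MCF10A by group, on linear axes from 0. Bars are means of 3 replicates, error bars SD, and the symbol gives the replicate number. PHGDH, SHMT2, MTHFD1, MTHFD2 and ALDH1L2 have all 6 mimic libraries below all siNT libraries, and the squares of siNT show replicate 8 as the lowest siNT library of PHGDH, PSAT1, PSPH, SHMT2, MTHFD2, MTHFD1L and ALDH1L2.

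PHGDH (chr1:119711934-119744215, + strand, 12 exons, hg38, as are the positions below), which commits carbon to serine, had normalized read counts of 1415, 378.2 and 1390.4 in siNT replicates 7, 8 and 9. With miR-28 they were 89.8, 111 and 129 and with miR-708 117, 116 and 89.7. All 6 mimic libraries lay below all siNT libraries, and the siNT libraries themselves were far apart, with replicate 8 at 378.2 against 1415 and 1390.4. The mean was 1061 ± 592 in siNT, 110.0 ± 19.7 with miR-28 and 107 ± 15.3 with miR-708 (SD, n = 3 each). The log2 fold change was -3.05 ± 0.41 (SE) with miR-28 and -3.08 ± 0.41 with miR-708, the 3rd and the 12th lowest of 14726 genes. Even the low siNT replicate 8 was 2.93-fold above the highest mimic library, and without it the log2 fold changes were -3.68 and -3.71.

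PSAT1 (chr9:78297125-78330093, + strand, 9 exons), the aminotransferase of the second step, had 7179, 3429 and 8104 in siNT. It had 2946, 3481 and 3555 with miR-28 and 3233, 2729.6 and 2944 with miR-708. Here the groups met: siNT replicate 8, at 3429, lay below 2 of the 3 miR-28 libraries and above the 3 miR-708 libraries. The log2 fold change was -0.82 ± 0.25 and -0.98 ± 0.25 (SE), and -1.20 and -1.36 without siNT replicate 8. PSAT1 was no longer called with miR-28 when siNT replicate 7 (-0.67), siNT replicate 9 (-0.58) or any 1 of the 3 miR-28 libraries was left out (-0.73 to -0.87).

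PSPH (chr7:56011064-56051444, - strand, 8 exons), the phosphatase that ends the route, had 1371, 875 and 1467 in siNT, 874, 832 and 851 with miR-28 and 944, 946 and 809 with miR-708. Replicates 7 and 9 of siNT were above all mimic libraries, and replicate 8 lay within the range of the miR-708 libraries. The log2 fold changes of -0.50 ± 0.17 and -0.43 ± 0.17 (SE) were not called. They were called lower with the replicate number as a block, which keeps the same fold changes, and without siNT replicate 8, where they were -0.73 and -0.66.

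SHMT2 and SHMT1, which do the same chemistry in mitochondria and in the cytosol, stood apart from each other. SHMT2 (chr12:57229711-57234935, + strand, 12 exons) had 4099.9, 3528 and 4571 in siNT, 1546, 1714 and 1606 with miR-28 and 1630.2, 1357 and 1344 with miR-708, with no overlap of siNT and mimic libraries. Its log2 fold change was -1.32 ± 0.12 and -1.49 ± 0.12 (SE), the smallest standard error relative to its size among the 9 enzymes in MCF10A. SHMT1 (chr17:18327873-18363550, - strand, 12 exons) had 742, 818 and 789.8 in siNT, 588, 729 and 701 with miR-28 and 584, 732 and 752 with miR-708. The miR-28 libraries were all just below siNT and miR-708 replicate 9 was within siNT, at log2 fold changes of -0.22 ± 0.13 and -0.19 ± 0.13 (SE) that were not called. For SHMT1 siNT replicate 8 was the highest of the 3 siNT libraries.

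MTHFD2 and ALDH1L2, the 2 mitochondrial folate enzymes with a seed match in the 3′ UTR, were both lower. MTHFD2 (chr2:74198615-74217565, + strand, 8 exons) had 7054, 4631 and 7876 in siNT, 2917, 2871 and 3006 with miR-28 and 3480.0, 2831 and 2998 with miR-708. All 6 mimic libraries were below siNT replicate 8, at log2 fold changes of -1.12 ± 0.17 and -1.04 ± 0.17 (SE). ALDH1L2 (chr12:105019790-105084458, - strand, 23 exons) had 9554, 4231 and 8875 in siNT, 2614, 1415 and 1378 with miR-28 and 2087, 945 and 814 with miR-708. Replicate 7 was the highest library in each of its 3 groups and siNT replicate 8 was again the lowest of siNT. The log2 fold change of ALDH1L2 was -2.05 ± 0.39 and -2.60 ± 0.39 (SE). PHGDH, SHMT2 and PSAT1, which have no seed match in the 3′ UTR, were lower as well. PHGDH and PSAT1 have a 7-base match in coding sequence, as do MTHFD1 and ALDH1L2. Whether a seed match had a part in any of these values was not tested.

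MTHFD1 and MTHFD1L, at the cytosolic end and at the release of formate, lay closer to siNT. MTHFD1 (chr14:64388353-64460025, + strand, 28 exons) had 6469, 7107 and 6101 in siNT, 4935, 5112 and 5110.0 with miR-28 and 5697, 4472 and 4336 with miR-708. No mimic library reached the lowest siNT library, and the log2 fold changes were small, -0.37 ± 0.11 and -0.45 ± 0.11 (SE). The call of MTHFD1 with miR-28 was lost when any 1 of the 6 libraries of siNT or miR-28 was left out (log2 fold change -0.42 to -0.31), and that with miR-708 only without miR-708 replicate 9 (-0.38). MTHFD1L (chr6:150865702-151101887, + strand, 28 exons) had 2498, 2435 and 2746 in siNT, 2098, 2456 and 2735 with miR-28 and 2314, 2219.5 and 2322 with miR-708, at log2 fold changes of -0.08 ± 0.11 and -0.16 ± 0.11 (SE) that were not called. Its miR-28 libraries reached from below siNT, at replicate 7, to within the range of siNT, and its miR-708 libraries lay just below siNT.

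The low siNT library was not low for every enzyme. In siNT replicate 8 of MCF10A, PHGDH was 3.70-fold below the mean of replicates 7 and 9 on the log2 scale. By that difference it was the 32nd lowest of 14726 genes, and the median of all genes was 0.01 (log2). The scaling by a size factor takes out a shift that most genes share, so this median does not show whether the library was low throughout. The same difference was -1.15 for PSAT1, -1.12 for ALDH1L2, -0.70 for PSPH, -0.69 for MTHFD2, -0.30 for SHMT2 and -0.11 for MTHFD1L, and it was 0.10 for SHMT1 and 0.18 for MTHFD1. Replicate 8 was thus the lowest siNT library for 7 of the 9 enzymes, with a median difference of -0.69. It was also the lowest for 25 of 30 genes on a list of the ATF4 and amino acid response, with a median of -0.52. ATF4 itself was at -0.36. The share of all genes for which replicate 8 was the lowest siNT library was not counted, so nothing is read from these counts. By the median distance to its group over all genes replicate 8 did not stand apart (0.19, against 0.19 for replicate 7 and 0.17 for replicate 9). The order of the 9 enzymes in this difference, with PHGDH, PSAT1 and ALDH1L2 at the front, was measured between libraries that received the same siRNA.

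**Figure D2:**
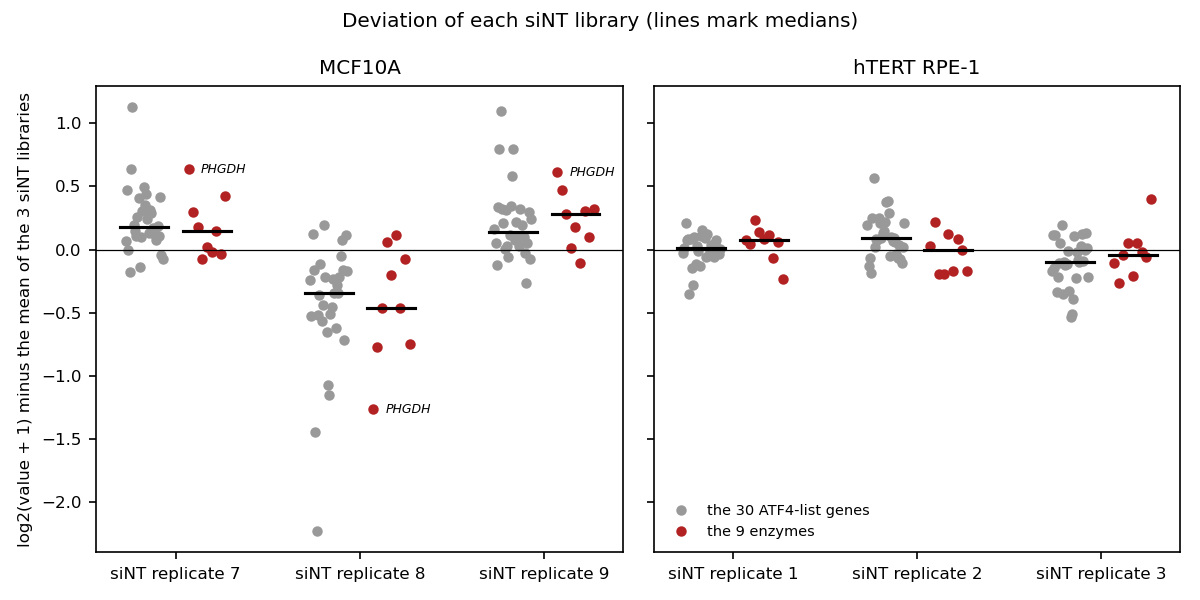
Deviation of each siNT library from the mean of its 3 siNT libraries, log2(value + 1), for the 9 enzymes (red) and the 30 genes of the ATF4 list (grey) in both lines; black lines mark medians. In MCF10A replicate 8 is the lowest siNT library for 7 of 9 enzymes and 25 of 30 list genes, with PHGDH the lowest enzyme. The share of all genes for which it is the lowest was not counted.

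In MCF10A no difference between the mimics passed the test for these enzymes. None of the 9 was called between miR-708 and miR-28 in limma with Benjamini-Hochberg adjustment, where 1.55% of all genes were called. No enzyme had an unadjusted p below 0.05 there. The log2 difference of PHGDH was -0.03 (95% interval -0.93 to 0.87), and the interval of SHMT2 was -0.43 to 0.08. The widest intervals were those of PHGDH and of ALDH1L2, whose difference was -0.56 (-1.40 to 0.29). The spread behind these intervals is shared by all groups of the line, siNT included. Without siNT replicate 8, the SE of the PHGDH difference between the mimics was 0.19 in place of 0.41.

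In hTERT RPE-1 the pattern differed from enzyme to enzyme. PHGDH was chosen from its fall in MCF10A. The 9 enzymes were chosen with earlier results of these data known, so this line is not shown to be free of that choice. With miR-28, PSAT1 and MTHFD1L rose and SHMT2 fell, so that 2 of 9 enzymes were called higher, where 23.3% of all genes were, and 1 lower, where 23.5% were. With miR-708, PHGDH and PSAT1 rose and ALDH1L2 fell, so that 2 of 9 were called higher, where 30.9% of all genes were, and 1 lower, where 31.2% were. The shares of the enzymes were 22.2% higher and 11.1% lower with each mimic. With 9 enzymes 1 call moves a share by 11.1%, so nothing is read from these shares against those of all genes. The median log2 fold change of the enzymes was 0.08 with miR-28 and 0.21 with miR-708, against 0.01 and 0.00 over all 14527 genes tested. The 2 comparisons share their siNT libraries. When each library was divided by its total instead, the median of all genes moved to 0.32 with miR-708, higher genes made up 71.9% of the calls in place of 49.7%, and 7 enzymes were called, all of them higher (PHGDH, PSAT1, PSPH, SHMT1, MTHFD1, MTHFD2 and MTHFD1L), where 46.8% of all genes were called higher and 18.3% lower. Their log2 fold changes then ran from 0.29 for MTHFD1L, below that shift of all genes, to 1.38 for PSAT1, and that of PHGDH was 0.82.

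**Figure D3:**
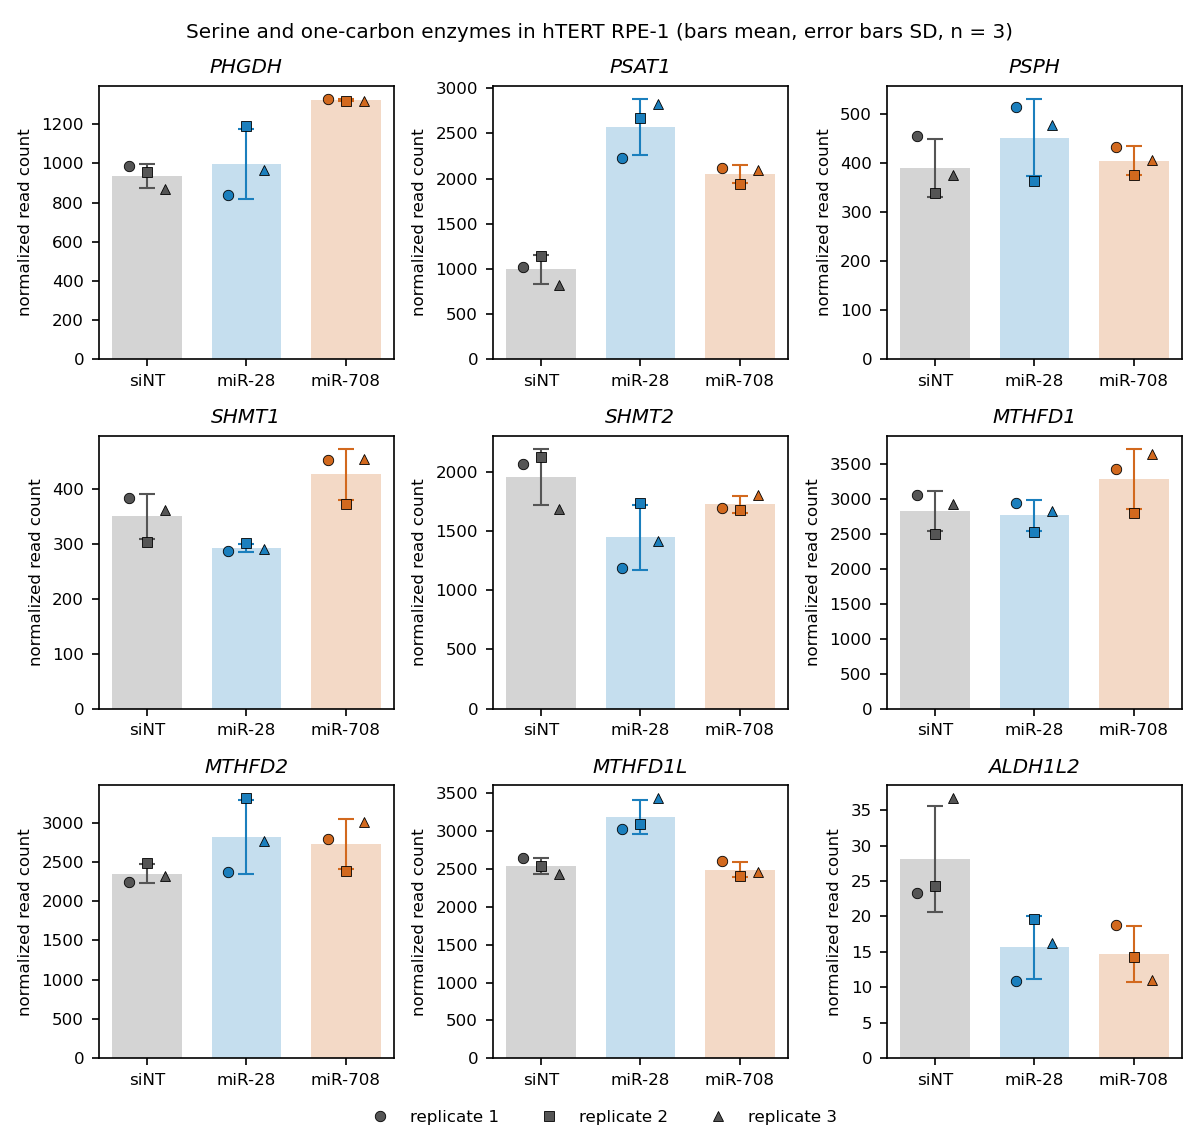
Normalized read counts of the 9 enzymes in hTERT RPE-1 by group, on linear axes from 0. Bars are means of 3 replicates, error bars SD, and the symbol gives the replicate number. PSAT1 is above siNT in all 6 mimic libraries and PHGDH in the 3 miR-708 libraries, which lie between 1320.3 and 1329.

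PHGDH had 989, 955 and 869 in siNT replicates 1, 2 and 3 of hTERT RPE-1. It had 837, 1189.8 and 966 with miR-28 and 1329, 1320.3 and 1321 with miR-708. The 3 miR-708 libraries were above every other library with a coefficient of variation of 0.366%, while the miR-28 libraries spread around siNT. PHGDH rose with miR-708 by 0.50 ± 0.12 (log2 fold change, SE, adjusted p = 0.0042, limma with Benjamini-Hochberg adjustment). With miR-28 the difference was 0.08 ± 0.12 (adjusted p = 0.629, limma, 95% interval -0.19 to 0.34). PHGDH was higher with miR-708 than with miR-28 by 0.42 (adjusted p = 0.031, limma). This last call was lost when any 1 of the 3 miR-708 libraries, miR-28 replicate 1 or miR-28 replicate 3 was left out, and without the trend or with only the groups compared. Without miR-28 replicate 1 the difference was 0.30.

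PSAT1 had the clearest change in this line. It had 1015, 1142 and 820.3 in siNT, 2225, 2667 and 2822 with miR-28 and 2122, 1940.5 and 2097 with miR-708. All 6 mimic libraries were above all siNT libraries. The log2 fold change was 1.38 ± 0.13 with miR-28 (adjusted p = 1.94e-05) and 1.06 ± 0.13 with miR-708 (adjusted p = 4.58e-05, both limma with Benjamini-Hochberg adjustment, SE). It kept its call under every alternative that was run, at 1.25 to 1.49 with miR-28 and 0.93 to 1.38 with miR-708. In MCF10A the same gene was at -0.82 and -0.98, and the difference between the lines was not tested.

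PSPH had 455, 338 and 376 in siNT, 515, 364 and 478 with miR-28 and 433, 376 and 407 with miR-708. The groups overlapped and PSPH was not called, at 0.21 and 0.06 (95% intervals -0.13 to 0.55 and -0.28 to 0.41). So in this line PSAT1, with both mimics, and PHGDH, with miR-708, passed the test among the 3 enzymes of serine synthesis.

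SHMT2 had 2067, 2119 and 1685 in siNT, 1184, 1732 and 1415 with miR-28 and 1693, 1675 and 1802 with miR-708. It fell with miR-28, at a log2 fold change of -0.45 ± 0.14 (SE, adjusted p = 0.0202, limma), although miR-28 replicate 2 lay above siNT replicate 3. The call was lost without siNT replicate 1 (-0.41), siNT replicate 2 (-0.39), miR-28 replicate 1 (-0.31) or miR-28 replicate 3 (-0.44), and when each library was divided by its total (-0.36, adjusted p = 0.0655, limma). With miR-708 SHMT2 was at -0.18 and was not called. SHMT1 had 383, 303 and 362 in siNT, 286, 300.3 and 290.3 with miR-28 and 453, 373 and 453 with miR-708. It differed between the mimics and not, past the threshold, from siNT: miR-708 was above miR-28 by 0.54 ± 0.13 (log2, SE, adjusted p = 0.0141, limma), with all 3 miR-708 libraries above all 3 miR-28 libraries. This call was lost without miR-708 replicate 1 or replicate 3 (log2 difference 0.49 and 0.49).

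MTHFD1L, which releases formate from mitochondria, had 2643, 2538 and 2436 in siNT, 3024, 3100.0 and 3435 with miR-28 and 2609, 2412 and 2456 with miR-708. The miR-28 libraries were above all others. MTHFD1L rose with miR-28 by 0.33 ± 0.08 (log2, SE, adjusted p = 0.00691, limma) and was lower with miR-708 than with miR-28, at a log2 difference of -0.35 (adjusted p = 0.0119, limma). The second call was lost without miR-28 replicate 3 (-0.30) or miR-708 replicate 3 (-0.34), and when each library was divided by its total (-0.12). With miR-708 against siNT it was at -0.03, and at 0.29 when each library was divided by its total, where the median of all genes was 0.32.

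ALDH1L2 was near the bottom of the measured range in hTERT RPE-1, at 23.3, 24.3 and 36.7 in siNT, 10.9, 19.7 and 16.3 with miR-28 and 18.8, 14.3 and 11.1 with miR-708. All 6 mimic libraries were below all siNT libraries. ALDH1L2 fell with miR-708, at -0.89 ± 0.34 (log2 fold change of value + 1, SE, adjusted p = 0.0415, limma), and with miR-28 it was at -0.81 ± 0.34 (adjusted p = 0.0717, limma). The call with miR-708 was lost when any 1 of the 3 siNT libraries, miR-28 replicate 3, or miR-708 replicate 2 or 3 was left out (-0.69 without siNT replicate 3), and when each library was divided by its total (-0.59, adjusted p = 0.17, limma). MTHFD2 had 2244, 2487 and 2319.8 in siNT, 2371, 3312 and 2766 with miR-28 and 2789, 2386 and 3006 with miR-708. MTHFD1 had 3058, 2504 and 2926 in siNT, 2950.1, 2526 and 2833 with miR-28 and 3426, 2807 and 3642 with miR-708. In both genes the mimic libraries overlapped siNT. Neither was called with a mimic, at 0.25 and 0.21 for MTHFD2 and -0.03 and 0.21 for MTHFD1. Without miR-28 replicate 1, MTHFD2 was called higher with miR-28 (0.37, adjusted p = 0.0269, limma).

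Between the mimics, 3 of the 9 enzymes were called in hTERT RPE-1 (PHGDH, SHMT1 and MTHFD1L), where 21.2% of all genes were called in either direction, 46.5% of them higher with miR-708 (84.8% when each library was divided by its total, where the median of all genes was 0.23). For the other 6, the log2 difference of miR-708 from miR-28 was -0.32 for PSAT1 (95% interval -0.60 to -0.03), and its interval was -0.49 to 0.20 for PSPH, -0.03 to 0.57 for SHMT2, -0.02 to 0.50 for MTHFD1 and -0.32 to 0.24 for MTHFD2. The interval of ALDH1L2 was the widest, -0.83 to 0.68. miR-28 replicate 1, the library with 15.1% of its signal on rRNA genes, was the lowest of its group for 7 of the 9 enzymes. Its median difference from the other 2 was -0.30 (log2). The share of all genes for which this library was the lowest of its group was not counted.

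**Figure D4:**
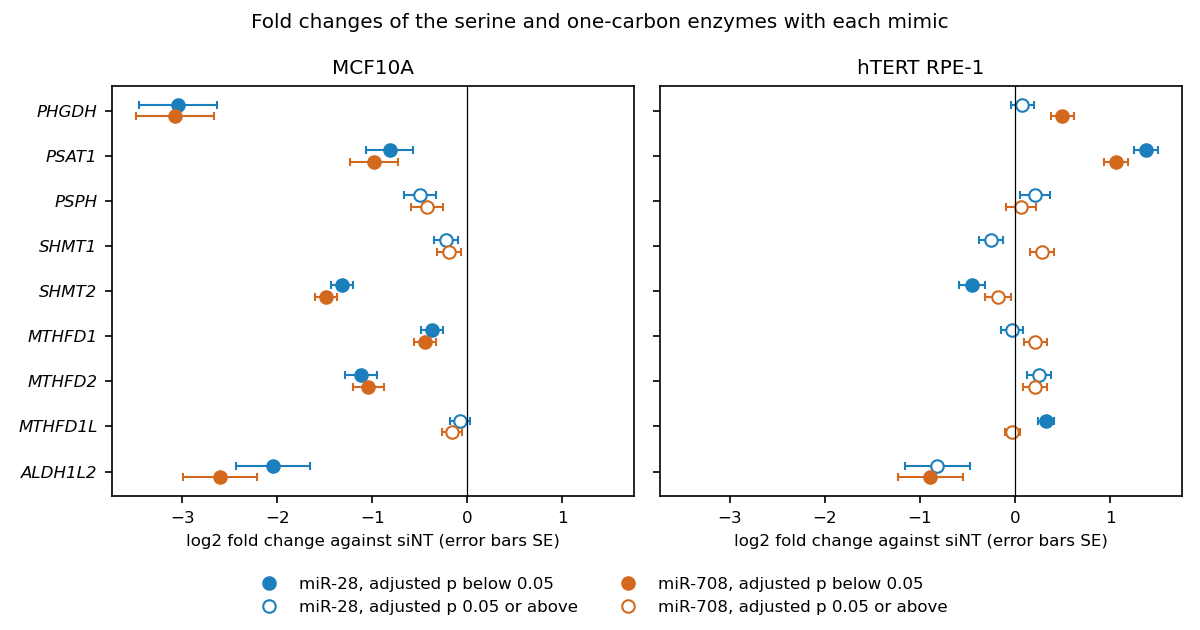
Log2 fold changes against siNT of the 9 enzymes with miR-28 (blue) and miR-708 (orange) in each line, with SE; filled points have an adjusted p below 0.05. In MCF10A all 18 points are below 0, from -3.08 to -0.08, and in hTERT RPE-1 they lie on both sides, from -0.89 to 1.38.

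Per kilobase of the canonical transcript (GENCODE 44), the enzymes could be ordered by level within a line. In siNT of MCF10A, PSAT1 had the highest level, 1555 to 3673 normalized reads per kb over the 3 libraries, followed by MTHFD1 (1934 to 2253), SHMT2 (1635 to 2119), MTHFD2 (1052 to 1789), ALDH1L2 (569.6 to 1286), MTHFD1L (706 to 796), PSPH (443 to 743), PHGDH (203 to 758) and SHMT1 (294 to 324). Every pair of neighbours in this order overlapped. In siNT of hTERT RPE-1 the order was SHMT2 (781 to 982), MTHFD1 (794 to 969.7), MTHFD1L (706 to 766), MTHFD2 (509.6 to 565), PHGDH (466 to 529.8), PSAT1 (372 to 518), PSPH (171 to 230.5), SHMT1 (120.0 to 152) and ALDH1L2 (3.14 to 4.94). There SHMT2 and MTHFD1 overlapped, as did MTHFD2, PHGDH and PSAT1 with their neighbours among these 3. ALDH1L2 was thus 5th of the 9 in MCF10A and last in hTERT RPE-1. The levels assume 1 transcript per gene.

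The genes around the pathway were counted from 4 lists. The folate cycle and glycine cleavage had 22 members tested in MCF10A, and 3 were called lower and 1 higher with miR-28 (12.0% and 10.7% of all genes), and 4 and 3 with miR-708 (17.3% and 15.5% of all genes). Without miR-28 replicate 9 only 1 was lower with miR-28, and without miR-708 replicate 7, which enters that fit through the shared spread, 5 were; without miR-28 replicate 7, 3 were higher. Among them were GLDC, the decarboxylase of glycine cleavage, at 409 ± 106 in siNT, 134 ± 34.5 with miR-28 and 153 ± 101 with miR-708 (mean ± SD, n = 3), GART of purine synthesis (-0.49 and -0.48, log2 fold change with miR-28 and miR-708) and MTRR, which reactivates methionine synthase (-0.50 and -0.56). The methionine cycle and transsulfuration had 3 of 15 lower and none higher with miR-28, and 4 lower and 1 higher with miR-708. AHCY, which hydrolyses S-adenosylhomocysteine, was at -0.62 and -0.81 and APIP of methionine salvage at -0.88 and -0.78. The median log2 fold changes of these lists were -0.09 and -0.03, and -0.15 and -0.17.

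Transport and use of serine and glycine had 6 of 18 genes lower and none higher in MCF10A with miR-28, and 9 lower and 2 higher with miR-708, beside the same shares of all genes. The lower genes were 3 with miR-28 without siNT replicate 7, miR-28 replicate 8 or miR-28 replicate 9, and with miR-708 4 without siNT replicate 7 or miR-708 replicate 9 and 5 without miR-708 replicate 8. When each library was divided by its total they were 5 and 5. SLC1A5, which carries neutral amino acids, had 6699 ± 1351 in siNT, 2803 ± 82.1 with miR-28 and 2682 ± 405 with miR-708 (mean ± SD, n = 3). SLC6A9, the glycine transporter GLYT1, was at -1.27 and -1.13, and SERINC2, a serine incorporator, at -0.71 and -1.13 (log2). In hTERT RPE-1 the same list had 5 lower and 3 higher with miR-28, and 10 lower and 3 higher with miR-708 (limma, adjusted p below 0.05). Of all genes in that line 23.5% were lower and 23.3% higher with miR-28, and 31.2% and 30.9% with miR-708. SERINC2 fell there too (-1.27 and -2.05), whereas SLC6A9 (1.16 and 1.46) and SPTLC3, a subunit of serine palmitoyltransferase (1.20 and 1.78), rose with both mimics. When each library was divided by its total, 3 in place of 10 genes of this list were lower with miR-708 in hTERT RPE-1.

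In hTERT RPE-1, 4 of the 21 tested genes of the folate list were higher and 4 lower with miR-28 (23.3% and 23.5% of all genes), and 7 and 4 with miR-708 (30.9% and 31.2% of all genes). When each library was divided by its total, 5 were higher and 2 lower with miR-28 and 11 and 1 with miR-708. The lower genes with miR-28 were also 2 without any 1 of the siNT libraries, miR-28 replicate 2 or miR-28 replicate 3. SLC46A1, the proton-coupled folate transporter, fell (-0.93 and -1.29), and MTHFD2L, the paralog of MTHFD2 (0.80 and 1.14), rose. Of the 18 tested genes of the methionine list, 6 were higher and 4 lower with miR-28, and 9 and 6 with miR-708, and 10 and 2 with miR-708 when each library was divided by its total. BHMT2 (-1.28 and -1.31) and AHCY (-0.76 and -0.78) fell and ADI1 of methionine salvage (0.76 and 0.94) rose. MTAP, which starts that salvage, was not listed in MCF10A and rose in hTERT RPE-1 (0.63 and 0.44, adjusted p = 0.000732 and 0.00389, limma). AHCY was lower with both mimics in both lines.

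The ATF4 and amino acid response list, 30 genes all tested in both lines and none of them among the 9 enzymes, had the median furthest below 0 of the 4 lists in MCF10A. With miR-28, 20 were called lower and 1 higher, and with miR-708 18 and 4, and the median log2 fold change was -0.63 with each. Over all genes 12.0% were called lower and 10.7% higher with miR-28, and 17.3% and 15.5% with miR-708. Without siNT replicate 8 the counts of lower genes were 20 and 20. With other single libraries left out they went as low as 14 with miR-28 and 15 with miR-708. When each library was divided by its total they were 17 and 16. SLC7A11, the cystine transporter, had 2703 ± 1527 in siNT, 534 ± 160.5 with miR-28 and 533 ± 84.6 with miR-708 (mean ± SD, n = 3). ASNS, asparagine synthetase, was at -2.06 and -2.21 and TRIB3, a pseudokinase induced by ATF4, at -1.86 and -1.94 (log2). The mRNA of ATF4 had 12017 ± 1700.2 in siNT, 5760.1 ± 447 with miR-28 and 6447 ± 228 with miR-708, and that of MYC 14535 ± 1825, 8647 ± 654 and 7475 ± 495. Both were called lower with both mimics.

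In hTERT RPE-1 the same list leaned the other way: 14 genes were called higher and 6 lower with miR-28, and 16 and 6 with miR-708, with median log2 fold changes of 0.40 and 0.35. Of all genes 23.3% were called higher and 23.5% lower with miR-28, and 30.9% and 31.2% with miR-708. Without miR-28 replicate 1 the counts with miR-28 were 15 and 3. With any 1 library left out, 11 to 15 were higher with miR-28 and 14 to 17 with miR-708. When each library was divided by its total, 14 were higher with miR-28 and 20 with miR-708, where 46.8% of all genes were higher. DDIT3, which encodes CHOP, rose by 2.18 and 3.09 and ATF3 by 2.05 and 3.03 (log2), while PYCR1 of proline synthesis fell, at -2.18 and -3.05. These named genes had the same sign in MCF10A, at 0.32 and 1.47 for DDIT3, 0.75 and 2.07 for ATF3 and -1.11 and -1.73 for PYCR1. ATF4 rose by 0.45 (adjusted p = 0.0113) and 0.35 (adjusted p = 0.0259, limma with Benjamini-Hochberg adjustment). MYC was at -0.07 and -0.10 and was not called. The ATF4 list was written with earlier results of these data known, and the difference between the lines was not tested.

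**Figure D5:**
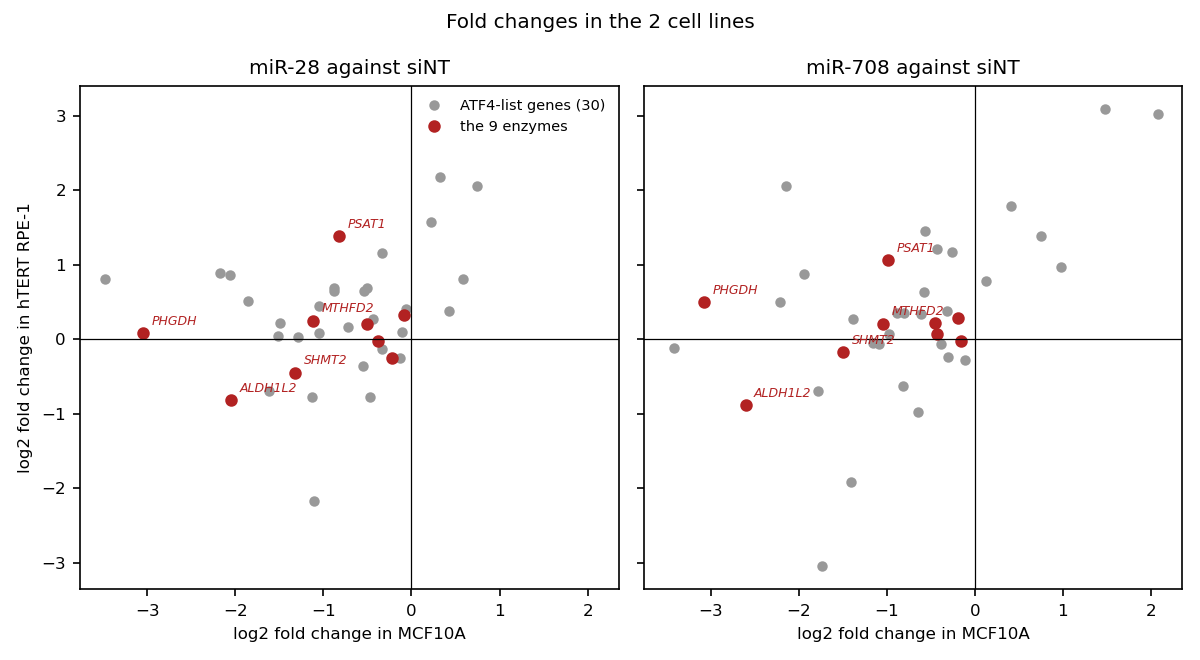
Log2 fold changes against siNT in MCF10A (horizontal) and hTERT RPE-1 (vertical) of the 9 enzymes (red) and the 30 genes of the ATF4 list (grey), for miR-28 (left) and miR-708 (right). With miR-28, 5 enzymes and 18 list genes are below 0 in MCF10A and above 0 in hTERT RPE-1. With miR-708 they are 6 and 13. Below 0 in both lines are 4 enzymes and 7 list genes with miR-28, and 3 and 11 with miR-708. Above 0 in both are 5 list genes with miR-28 and 6 with miR-708. The counts include values that were not called, and the share of all genes was not counted.

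The genes whose values followed PHGDH most closely over the 9 libraries of MCF10A were CARS1 (Pearson r = 0.993), STC2 (0.990), TOM1L1 (0.986), MARS1 (0.986) and HACE1 (0.986), among 11258 genes with a mean of at least 100. CARS1 and MARS1 encode the tRNA synthetases for cysteine and methionine and STC2 encodes stanniocalcin 2, a secreted glycoprotein. MTHFD2 came 8th (0.984), ATF4 16th (0.972) and SHMT2 24th (0.963), while SHMT1 (0.524) and MTHFD1L (0.578) were far behind. The 9 libraries share the group difference and the low siNT replicate 8, so these values describe both at once. In hTERT RPE-1 the closest genes of 11439 were SCNM1 (0.991), RELT (0.991), RAB8A (0.989), AIFM2 (0.987) and DDX12P (0.983), none of them an enzyme of the pathway. There r with PHGDH was 0.654 for SHMT1, 0.555 for MTHFD2, 0.430 for PSAT1, 0.385 for MTHFD1, 0.297 for SHMT2, -0.291 for PSPH and -0.311 for MTHFD1L. It was 0.542 for ATF4.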

How the data were processed

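Per the labels and the study's methods, polyadenylated RNA of 18 libraries was sequenced, and the authors aligned the reads to hg38 with HISAT2 2.1.0, quantified RefSeq transcripts in Partek Flow and tested with DESeq2. The signal values that the authors deposited, 1 table per line, are estimated read counts divided by a size factor per library of the median-of-ratios kind, recognised from the values, which takes out a shift that most genes share. Tables of the authors' own comparisons (fold changes and p-values) were not used. The depth was read from the step between low values, 81.5% to 85.3% of which were whole multiples of it, so the reads were not recovered. No column of values was left out.

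Values were analysed as log2(value + 1), where fold changes of low genes are understated, with limma 3.58.1 (R 4.3.3), an empirical Bayes trend and 3 group means per line. Genes with a value of 10 or more in 3 of 9 libraries were tested, 14726 in MCF10A and 14527 in hTERT RPE-1. Adjusted p below 0.05 (Benjamini-Hochberg, two-sided, over all genes tested) is a call. An exact permutation test of 3 against 3 libraries cannot go below p = 0.1 and was not used. The fit was tested on simulated data. The labels number the replicates without saying what a number shares. Correlations of same-numbered deviations were 0.11 to 0.30 between siNT and each mimic in MCF10A and 0.13 to 0.28 between the mimics in hTERT RPE-1. All were over 0.1, and by this cut those comparisons are treated as paired. They reached only 0.02 to 0.18 in the other 3 comparisons, each with a pair under 0.1. In MCF10A siNT replicate 8 and miR-28 replicate 9, of different numbers, also reached 0.11. The calls, standard errors and p-values given are from the fit without pairing, also for the comparisons treated as paired. The replicate block, which uses the replicate number, is an alternative, and its counts are given at the end. The methods call the libraries biological triplicates of 1 line, and p-values measure the spread between them.

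The 9 enzymes and the gene lists were chosen with earlier results of these data known. Named list genes are the 3 with the largest mean absolute change among those with a mean of 100 or more, called with both mimics in 1 direction, and the 5 genes most correlated with PHGDH. ATF4, MYC, MTAP, RPS28 and the marker genes were named beside this rule. A gene of the folate list is not reported here, and the counts over that list include it. Figures were drawn with matplotlib 3.10.9 (Python 3.11.15, pandas 2.3.3, numpy 2.4.6).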

Additional observations from a re-analysis of the deposited data

Results flagged for a closer look

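With miR-708, every mimic library was below every siNT library in MCF10A and above every siNT library in hTERT RPE-1 for PHGDH and for PSAT1. The log2 fold change in hTERT RPE-1 exceeded that in MCF10A by 3.58 for PHGDH (0.50 against -3.08) and by 2.04 for PSAT1 (1.06 against -0.98). The difference between the lines was not tested, the tables were scaled separately, and the MCF10A values are those from which PHGDH was chosen. Neither gene met this with miR-28, where PSAT1 overlapped siNT in MCF10A and PHGDH in hTERT RPE-1. With miR-708 in MCF10A, the highest library of PSAT1 was at 3233 against 3429 in siNT replicate 8. The share of all genes that met this in both lines was not counted, so nothing is read from the number of enzymes that did.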

How the results depend on the processing

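The alternatives were another pseudocount, no or a stricter filter, other scalings, no trend, only the groups compared, the replicate block, a 2-fold minimum and each library left out; those for the lists were chosen after seeing the data. With 1 library left out, 12 of 243 enzyme values lost a call, 2 gained one and 8 changed sign in MCF10A, and 19, 4 and 9 of 243 in hTERT RPE-1, and under the other alternatives 6, 3 and 2 of 243 and 6, 8 and 6 of 240. The causes were not tested. With each library divided by its total, 7 enzymes in place of 3 were called with miR-708 in hTERT RPE-1, and these changed sign: MTHFD1L (0.029) with miR-28 and PHGDH (0.0025) between the mimics in MCF10A; in hTERT RPE-1 MTHFD1 (0.057) with miR-28, SHMT2 (0.14) and MTHFD1L (0.29) with miR-708, and PSPH (0.089), MTHFD2 (0.19) and ALDH1L2 (0.14) between the mimics. A 2-fold minimum left 1 enzyme called with miR-28, 1 with miR-708 and 0 between the mimics in hTERT RPE-1, and of the ATF4 list 12 and 10 lower in MCF10A and 4 and 8 higher in hTERT RPE-1 (miR-28 and miR-708). With 1 library left out, 0 to 4 enzymes were called between the mimics in hTERT RPE-1 (0 without miR-708 replicate 3, 1 without miR-708 replicate 1 or miR-28 replicate 3), and 4 to 6 with miR-28 in MCF10A (4 without siNT replicate 7 or 9 or any miR-28 library). Values that changed sign then ranged, in MCF10A, for MTHFD1L with miR-28 from -0.17 to 0.020, and between the mimics for SHMT1 from -0.062 to 0.15, PHGDH -0.17 to 0.094, MTHFD1L -0.18 to 0.0093 and MTHFD2 -0.0089 to 0.14. In hTERT RPE-1 they ranged with miR-28 for MTHFD1 from -0.11 to 0.036 and PHGDH -0.058 to 0.20, with miR-708 for MTHFD1L from -0.06 to 0.0027 and PSPH -0.031 to 0.18, and between the mimics for MTHFD2 from -0.16 to 0.084 and ALDH1L2 -0.30 to 0.10. None of these was called before. In the comparisons treated as paired the replicate block gave 7 enzymes called with each mimic in MCF10A (PSPH added) and 3 between the mimics in hTERT RPE-1, and changed no other call there. With the block, 4408 in place of 3347 of all genes were called with miR-28 in MCF10A, and 5818 in place of 4835 with miR-708. Where numbers did not pair the samples, in hTERT RPE-1 with miR-708, MTHFD1 was called under the replicate block (adjusted p = 0.0362, limma) and ALDH1L2 was not (adjusted p = 0.0604, limma); the counts stayed at 3 there and with miR-28 and at 0 between the mimics in MCF10A. At values near 10 to 40, as for ALDH1L2 in hTERT RPE-1, depth limits the precision, and a filter at 50 drops that gene.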
